A study of Mus musculus with 8 samples.

Results

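The immunoglobulin heavy and light chain genes were followed in B cell precursors that lacked the coactivator OBF-1, the zinc finger protein Aiolos, or both. The members are the array features, called probe sets, whose annotation names a variable, joining or constant region gene of the heavy, kappa or lambda chain, or the Igh, Igk or Igl locus itself, without the surrogate light chain genes. By this rule 54 of the 22626 probe sets tested were members, namely 23 of the heavy chain, 28 of the kappa chain and 3 of the lambda chain, and they carry 27 gene symbols. The letters of the rule also take 3 probe sets of Ighmbp2, a helicase gene named for binding near the mu switch region and no immunoglobulin gene, and these were left out.

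Expression was measured on Affymetrix MOE430A arrays in B220+ CD25+ pre-BII cells sorted from bone marrow of wild type, OBF-1-/-, Aiolos-/- and Aiolos-/-/OBF-1-/- mice, with 2 arrays per genotype and 8 in all. The deposited labels give Bl6 mice aged 7 weeks and name whole bone marrow of 1 deletion mouse as the source of each mutant sample. The study's methods instead describe cells sorted from pooled marrow, with 2 independent pools of 8 mice for each genotype, and that description was followed. The array cells were sorted on B220 and CD25, and no gate against surface IgM is stated for them. The deletions were not limited to B cells.

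An antibody chain is built from a variable part, joined by recombination from V, D and J segments or from V and J segments, and a constant part. In pre-BII cells the heavy chain has been joined and is made with the mu constant region, and the kappa and then the lambda genes become open to recombination. V segments are transcribed before they are joined (germline transcription), and a joined gene is transcribed from the promoter of the chosen V segment. These promoters carry an octamer motif that is bound by Oct-1 and Oct-2, and OBF-1, the product of Pou2af1, acts as a coactivator of the Oct proteins there. Aiolos, encoded by Ikzf3, belongs to the Ikaros family, which holds genes silent or active through chromatin remodelling complexes.

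Values are intensities in the arbitrary units of the array after RMA, a procedure that corrects background and makes the arrays alike in distribution. On the 8 arrays the median intensity of all probe sets was 66.8 to 69.4 units, and 40.4 to 41.1% of them reached 100 units. No filter on low values was used, and 27 of the 54 members reached a mean of 100 units in a genotype while the other 27 did not. Changes are log2 fold changes from limma with their standard error (SE), and a change counted as passing at a Benjamini-Hochberg adjusted p under 0.05 over all 22626 probe sets. Pou2af1 was measured at 2760 and 2680 units on the wild type arrays, 2430 and 2840 on the Aiolos-/- arrays, 241 and 236 on the OBF-1-/- arrays and 170 and 273 on the double-deficient arrays. The genotypes labelled as lacking OBF-1 were thus low in its mRNA, and Ikzf3 mRNA was not analysed here. Fluidics station 2 served for washing the wild type and OBF-1-/- arrays and station 1 for the Aiolos-/- and double-deficient arrays. Loss of OBF-1 could therefore be read within a station on separate arrays, in OBF-1-/- cells against wild type and in double-deficient against Aiolos-/- cells. Within each station, arrays with OBF-1 ran on fluidics modules 1 and 2 and arrays without it on modules 3 and 4. Module and loss of OBF-1 thus cannot be told apart in either of these comparisons. In every comparison of a genotype lacking Aiolos with one that has it, station and genotype cannot be told apart.

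In OBF-1-/- cells 11 of the 28 kappa, 2 of the 3 lambda and all 3 alpha heavy chain probe sets fell against wild type, while none of the 11 of the mu heavy chain and none of the 3 annotated with the kappa constant region passed. Together these were 16 of the 54 members lower and 0 higher, beside 1.14% lower and 0.946% higher over all probe sets. In double-deficient cells 20 members fell and 0 rose against Aiolos-/- cells, beside 1.19% lower and 1.75% higher over all. Against wild type double-deficient cells had 21 members lower and 1 higher, where 4.28% and 4.29% of all probe sets passed in these directions. Loss of Aiolos alone touched few members, 3 lower and 1 higher beside 1.01% and 0.831% over all, and the 3 that fell were the 3 lambda probe sets. Double-deficient cells differed from OBF-1-/- cells at 6 members that were lower and 1 that was higher, beside 1.03% and 1.61% over all. The median log2 fold change of the 54 members was -0.20 in OBF-1-/- cells, 0.0176 in Aiolos-/- cells and -0.31 in double-deficient cells, against 0.0204, 0.0298 and 0.00826 over all probe sets.

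The lambda chain showed the widest changes among the loci and was the only locus with calls in each of the 6 tests. Its probe set for the constant gene Iglc1 and the variable gene Iglv1 (1424931_s_at) had 2937 and 2628 units in wild type, 443.6 and 300.6 in OBF-1-/- cells, 1097 and 1455 in Aiolos-/- cells, and 117.7 and 109.5 in double-deficient cells. The order of the genotypes was thus wild type, Aiolos, OBF-1 and double, with no overlap between any 2 of them. The fold changes against wild type were 7.61-fold lower in OBF-1-/- cells (log2 -2.93, SE 0.17, adjusted p = 2.18e-06 from limma), 2.2-fold lower in Aiolos-/- cells (log2 -1.14, SE 0.17, adjusted p = 0.00959 from limma) and 24.5-fold lower in double-deficient cells (log2 -4.61, SE 0.17, adjusted p = 1.75e-08 from limma). Without wild type replicate 1 or Aiolos replicate 1, the change of this probe set in Aiolos-/- cells no longer passed, with an adjusted p of 0.109 and 0.0961. Double-deficient cells lay below each single-deficient genotype as well, by 3.48 on the log2 scale against Aiolos and by 1.69 against OBF-1. The double-deficient change minus the sum of both single changes on the log2 scale was -0.55, with an unadjusted 95% interval of -1.08 to -0.0195, and did not pass (adjusted p = 0.406 from limma).

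The other lambda probe sets both name Iglv1 alone and did not follow one pattern. Probe set 1427292_at had 697.2 and 655.2 units in wild type, 76.0 and 62.81 in OBF-1-/- cells, 183.6 and 192.3 in Aiolos-/- cells, and 58.21 and 51.03 in double-deficient cells. The genotypes came in the same order here, but OBF-1-/- cells were already close to double-deficient cells, and the difference between them, -0.34 with an interval of -0.59 to -0.0972, did not pass (adjusted p = 0.16 from limma). Probe set 1430523_s_at had 2007 and 1861 units in wild type, 1614 and 873.8 in OBF-1-/- cells, 946.8 and 1064 in Aiolos-/- cells, and 188.2 and 222.6 in double-deficient cells. Here the OBF-1 arrays lay far apart and overlapped those of Aiolos-/- cells, and the change in OBF-1-/- cells (log2 -0.70, SE 0.21) did not pass, with an adjusted p of 0.144 in limma, or of 0.00191 without OBF-1 replicate 1. Its fall in Aiolos-/- cells (log2 -0.95, SE 0.21) passed only narrowly (adjusted p = 0.0479 from limma) and was lost under 10 of the 15 alternative treatments.

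The interaction of the deletions, which asks whether the double-deficient change departs from the sum of both single changes, passed at 1 of the 54 members, beside 0.155% of all probe sets that were higher and 0.0309% that were lower by this term. This was 1427292_at of Iglv1, at 1.5 (SE 0.16, adjusted p = 0.00421 from limma), meaning that double-deficient cells were less low than the sum. Its values in OBF-1-/- cells and double-deficient cells lay near or under the array medians of 66.8 to 69.4 units. Probe set 1430523_s_at went the other way, with -1.59 (SE 0.30, adjusted p = 0.0795 from limma), lower than the sum without passing, or passing at 0.0485 after a further quantile normalization and at 0.003 without OBF-1 replicate 2. The 3 lambda probe sets thus gave 1 positive and 2 negative interaction values. An additive station effect on log2 values would drop out of this term.

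**Figure D1:**
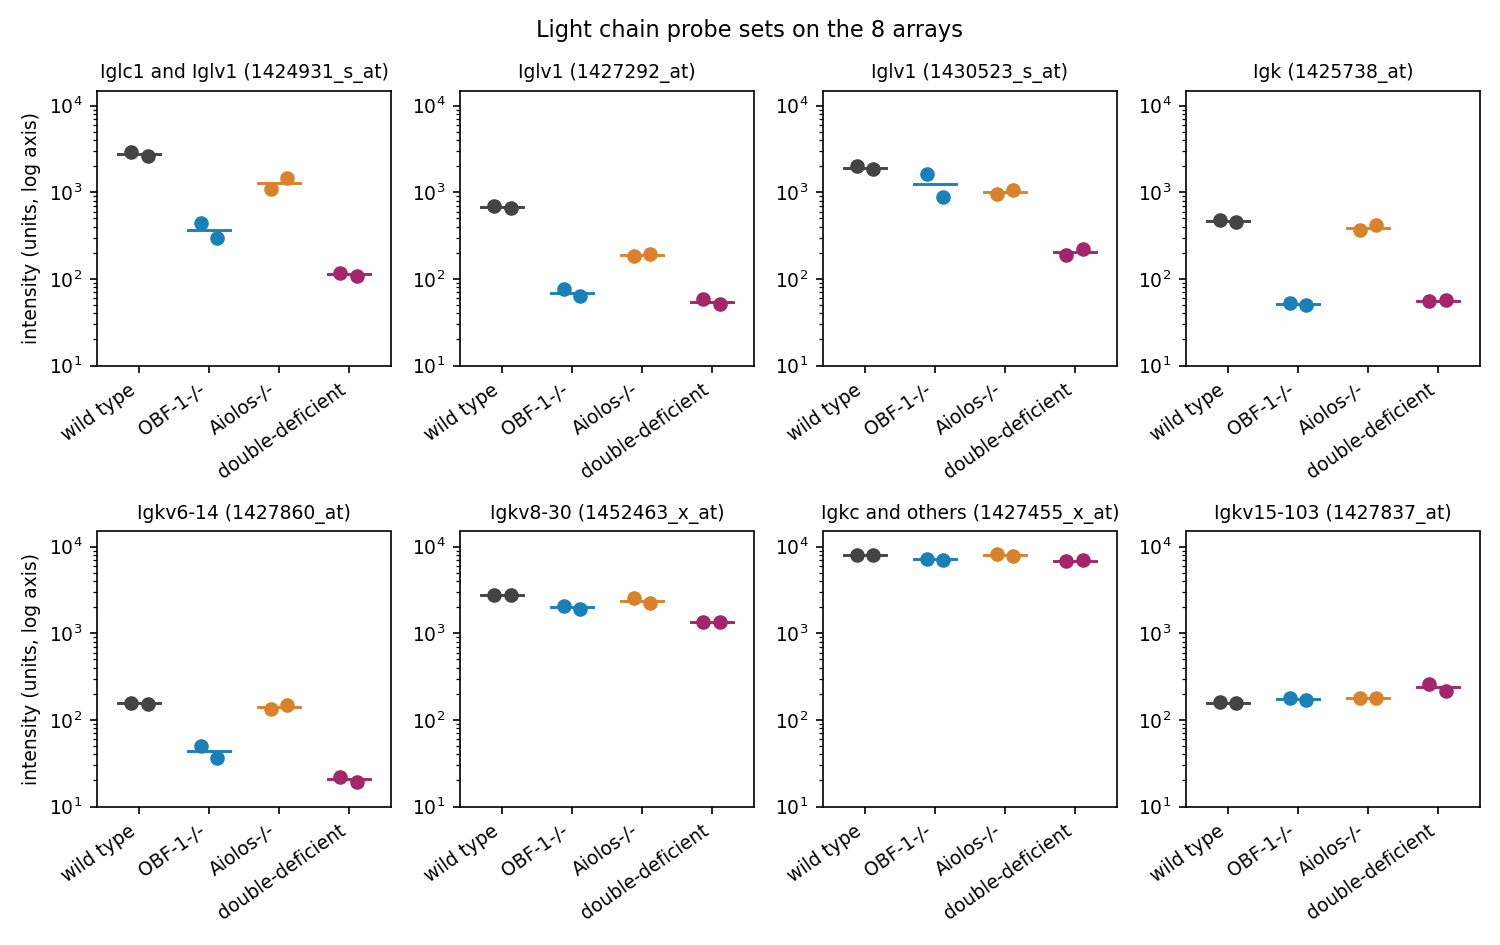
Intensity on a log axis, in array units, of 8 light chain probe sets on each of the 8 arrays, with 1 point per array and a bar at the mean of each genotype (n = 2). The lambda probe sets and Igk 1425738_at are low in OBF-1-/- cells or double-deficient cells, the Igkc probe set lies between 6796 and 8205 units on all arrays, and Igkv15-103 is highest in double-deficient cells.

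Of the 28 kappa probe sets, 11 fell and 0 rose in OBF-1-/- cells, 14 fell and 1 rose in double-deficient cells against wild type, and 14 fell in double-deficient against Aiolos-/- cells. None of the 28 passed in Aiolos-/- cells, where their changes ran from -0.27 to 0.28 with 13 above 0 and 15 below. The calls were spread unevenly over the parts of the kappa chain. Among the 3 probe sets annotated with the constant gene Igkc none passed in OBF-1-/- cells, among the 21 named for V kappa segments alone 9 fell, and of the 4 named only for the Igk locus 2 fell.

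The Igkc probe sets also name the joining segment Igkj1 and V segments, so they cannot be given to the constant region alone. The brightest of them, 1427455_x_at, had 8048 and 8031 units in wild type, 7230 and 7092 in OBF-1-/- cells, 8205 and 7838 in Aiolos-/- cells, and 6796 and 6944 in double-deficient cells. The genotypes lacking OBF-1 lay a little lower on this probe set, with log2 differences of -0.17 (interval -0.36 to 0.0225) in OBF-1-/- cells and -0.23 (interval -0.42 to -0.0374) in double-deficient cells that did not pass. The probe set 1452417_x_at passed in double-deficient cells against wild type (log2 -0.58, SE 0.0913, adjusted p = 0.00186 from limma) and against each single-deficient genotype (-0.40 and -0.41), from 1628 and 1756 units in wild type to 1100 and 1160 in double-deficient cells. The probe set 1427660_x_at, at 2097 and 2152 units in wild type and 1565 and 1706 in double-deficient cells, passed against wild type alone (log2 -0.38, adjusted p = 0.0254 from limma). Leaving out wild type replicate 1, wild type replicate 2 or double replicate 1 ended the call of 1427660_x_at (adjusted p = 0.0918, 0.131 and 0.159), and the calls of 1452417_x_at against Aiolos-/- and OBF-1-/- cells were lost without some arrays, with adjusted p-values up to 0.213 against Aiolos and 0.192 against OBF-1.

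A probe set named only for the Igk locus, 1425738_at, showed the largest kappa change. It had 485.6 and 455.6 units in wild type, 364.7 and 415.7 in Aiolos-/- cells, 52.7 and 49.62 in OBF-1-/- cells, and 55.51 and 56.5 in double-deficient cells. The arrays fell into those with OBF-1 and those without, and the presence of Aiolos made no difference that passed in either setting. The fall was 9.2-fold in OBF-1-/- cells (log2 -3.20, SE 0.0975, adjusted p = 4.03e-09 from limma) and 6.95-fold in double-deficient against Aiolos-/- cells (log2 -2.80, SE 0.0975, adjusted p = 2.5e-08 from limma). This call held under all 15 alternative treatments in both settings. A second locus probe set, 1427757_at, fell from 85.42 and 49.63 units in wild type to 31.33 and 33.48 in OBF-1-/- cells and to 21.49 and 22.25 in double-deficient cells, and its call in OBF-1-/- cells was lost without wild type replicate 1 or without either OBF-1 array (adjusted p = 0.081, 0.115 and 0.0967).

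Among the V kappa segments, Igkv6-14 was the most affected. Its probe set 1427860_at had 159.0 and 151.4 units in wild type, 134.3 and 147.3 in Aiolos-/- cells, 50.58 and 36.23 in OBF-1-/- cells, and 22.2 and 19.4 in double-deficient cells. Double-deficient cells lay below OBF-1-/- cells on this probe set (log2 -1.04, SE 0.14, adjusted p = 0.00182 from limma), and the fall without OBF-1 was 3.62-fold where Aiolos was present and 6.78-fold where it was absent. Whether these folds differ is the interaction, -0.90 (SE 0.20), which did not pass (adjusted p = 0.149 from limma) or passed at 0.0406 without OBF-1 replicate 2. The 3 probe sets that share Igkv6-14, Igkv6-23 and Igkv8-19 all fell as well. The brightest of these, 1451965_at, had 521.0 and 405.8 units in wild type, 447.2 and 457.7 in Aiolos-/- cells, 201.8 and 190.7 in OBF-1-/- cells, and 144.7 and 142.7 in double-deficient cells. It fell by 1.23 on the log2 scale in OBF-1-/- cells and by 1.65 in double-deficient against Aiolos-/- cells (SE 0.11 each, adjusted p = 9.97e-05 and 7.46e-06 from limma).

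Igkv8-30, the brightest probe set of a single V kappa segment (1452463_x_at), moved less. It had 2786 and 2806 units in wild type, 2072 and 1935 in OBF-1-/- cells, 2542 and 2241 in Aiolos-/- cells, and 1351 and 1347 in double-deficient cells. Double-deficient cells were again the lowest, by 0.82 against Aiolos and by 0.57 against OBF-1 on the log2 scale (adjusted p = 0.000374 and 0.00781 from limma), while the fall of 0.48 in OBF-1-/- cells was lost when either wild type array or either OBF-1 array was left out (adjusted p = 0.0678 to 0.168). Of the segments with lower intensity, Igkv6-20 (1451962_at) fell by 0.98, Igkv4-68 (1427857_x_at) by 0.91, Igkv4-72 (1426201_at) by 0.98 and the probe set of Igkv4-55 and Igkv4-68 (1426200_at) by 0.53 in OBF-1-/- cells, and by 1.01, 1.03, 1.19 and 1.25 in double-deficient against Aiolos-/- cells. All 4 had wild type values under 85 units. Of these 4, Igkv6-20 kept its call in OBF-1-/- cells whichever array was left out, and the other 3 lost it without wild type replicate 1 and without OBF-1 replicate 2. Igkv5-39 (1451948_at) and Igkv19-93 (1427856_a_at), both under 35 units on every array, passed only in comparisons of double-deficient cells, with -0.70 and -0.48 against Aiolos-/- cells. Over the alternatives these changes ran from -0.87 to -0.52 and from -0.55 to -0.40, and both calls were lost without some arrays.

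Other V kappa segments did not pass in the lower direction. Igkv15-103 (1427837_at) had 160.0 and 157.6 units in wild type, 179.6 and 170.9 in OBF-1-/- cells, 177.8 and 180.8 in Aiolos-/- cells, and 259.6 and 217.5 in double-deficient cells. It was the only kappa member that rose, by 0.58 against wild type (SE 0.10, adjusted p = 0.00375 from limma) and by 0.44 against OBF-1-/- cells (adjusted p = 0.0438 from limma), the second of which was lost under 10 of 15 alternatives. Igkv9-120 (1460423_x_at) had 469.0 and 459.8 units in wild type and 676.4 and 548.9 in OBF-1-/- cells, which is 0.39 on the log2 scale (interval 0.16 to 0.63) and did not pass (adjusted p = 0.105 from limma). Igkv14-111 (1451951_at) lay between 104.5 and 136.8 units on all 8 arrays.

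The V kappa members were set in gene order, since 16 of their probe sets name a single segment. In the gene table used for names, 162 V kappa segments stand in a row, counted here from the side of the joining segments. On the J side of the middle lie 6 probe sets of 6 segments, and of these 4 fell in OBF-1-/- cells and 5 in double-deficient against Aiolos-/- cells. Beyond the middle lie 10 probe sets of 7 segments, of which 1 and 2 fell in these comparisons. The 1 was Igkv4-72 in place 83, the nearest to the middle, so that from Igkv19-93 in place 109 outward none of the other 9 probe sets passed in OBF-1-/- cells. The median log2 fold change in OBF-1-/- cells was -0.72 on the J side and -0.0775 beyond the middle. Wild type values over 50 units were measured at 3 of the 6 and 5 of the 10 probe sets, so dim probe sets were present on both sides. Wild type means ran from 17.95 to 2796 units on the J side and from 12.49 to 464.4 beyond the middle. The sides were thus not matched in intensity. This order is a description of 13 segments out of 162 with no test, and on the J side Igkv6-15 in place 16, at 16.54 to 19.36 units on all arrays, passed in neither comparison and Igkv5-39 in place 41 not in OBF-1-/- cells (log2 -0.53).

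**Figure D2:**
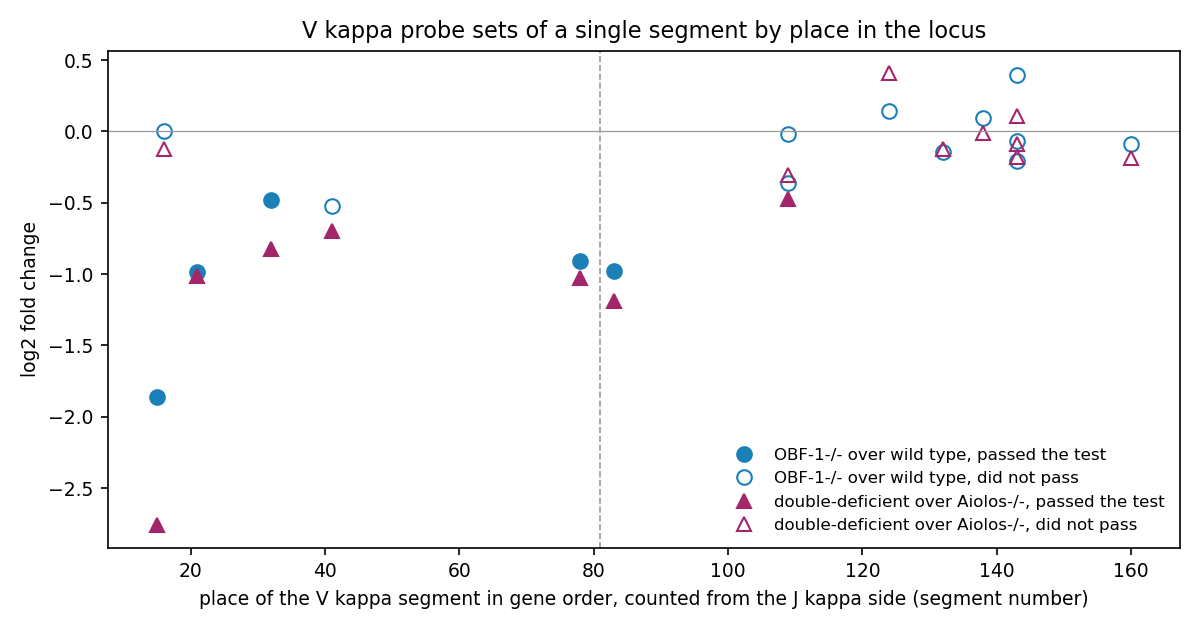
Log2 fold change on loss of OBF-1 of the 16 probe sets that name a single V kappa segment, against the place of the segment among 162 V kappa segments counted from the joining segments. Circles give OBF-1-/- cells over wild type, triangles double-deficient over Aiolos-/- cells, filled marks passed the test, and the dashed line marks the middle of the row. Filled marks lie at places 15 to 83, apart from 1 triangle at place 109.

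In the heavy chain the mu constant gene Ighm, which makes the chain of the pre-B cell receptor, had high intensity in every genotype. Its brightest probe set, 1427351_s_at, had 11280 and 11160 units in wild type, 9044 and 10760 in OBF-1-/- cells, 9485 and 9806 in Aiolos-/- cells, and 8265 and 9292 in double-deficient cells. All mutant arrays lay under both wild type arrays, with genotype means lower by up to 0.36 on the log2 scale, and no difference passed. The interval of the difference was -0.42 to 0.0465 in OBF-1-/- cells and -0.59 to -0.12 in double-deficient cells, and the latter (adjusted p = 0.0617 from limma) passed at 0.0117 to 0.0485 under 6 of 15 alternatives. A second bright Ighm probe set, 1427329_a_at, had 9091 and 8710 units in wild type, 7238 and 7588 without OBF-1, 8230 and 7698 without Aiolos, and 7611 and 7218 in double-deficient cells. Its log2 change was -0.26 in both OBF-1-/- cells and double-deficient cells, with SE 0.0909 and adjusted p = 0.214 and 0.106 from limma. Of the 11 probe sets named for Ighm alone, none passed in OBF-1-/- cells and none in double-deficient against Aiolos-/- cells. In double-deficient cells against wild type 1 passed, 1427869_at, which went from 30.05 and 29.57 units to 23.18 and 20.63 (log2 -0.45, adjusted p = 0.0139 from limma).

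The heavy chain probe sets that fell on loss of OBF-1, with or without Aiolos, were the 3 of Igha, the constant gene of the IgA heavy chain, which lies at the far end of the heavy chain locus and is normally expressed after class switching. Probe set 1421653_a_at had 319.4 and 262.2 units in wild type, 111.7 and 134.0 in OBF-1-/- cells, 460.2 and 341.4 in Aiolos-/- cells, and 107.8 and 87.44 in double-deficient cells. Probe set 1425763_x_at had 456.0 and 257.2 units in wild type, 96.41 and 120.9 in OBF-1-/- cells, 491.6 and 351.1 in Aiolos-/- cells, and 104.3 and 82.16 in double-deficient cells. Probe set 1429381_x_at had 449.8 and 202.3 units in wild type, 100.2 and 98.73 in OBF-1-/- cells, 319.7 and 276.1 in Aiolos-/- cells, and 68.35 and 71.55 in double-deficient cells. On all 3 probe sets the arrays with OBF-1 lay above all arrays without it, and the wild type arrays of the _x_at probe sets lay well apart from each other. The log2 fold changes were -1.24, -1.67 and -1.60 in OBF-1-/- cells (SE 0.16, 0.24 and 0.26, adjusted p = 0.00129, 0.00288 and 0.00703 from limma) and -2.03, -2.17 and -2.09 in double-deficient against Aiolos-/- cells (adjusted p = 1.86e-05, 0.000247 and 0.000624 from limma). No Igha probe set passed in Aiolos-/- cells, where the changes were 0.45, 0.28 and -0.0223, or between double-deficient and OBF-1-/- cells. In OBF-1-/- cells the call of 1429381_x_at was lost without OBF-1 replicate 2 (adjusted p = 0.061) and, with that of 1425763_x_at, in a trend and robust fit (0.104 and 0.0528).

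**Figure D3:**
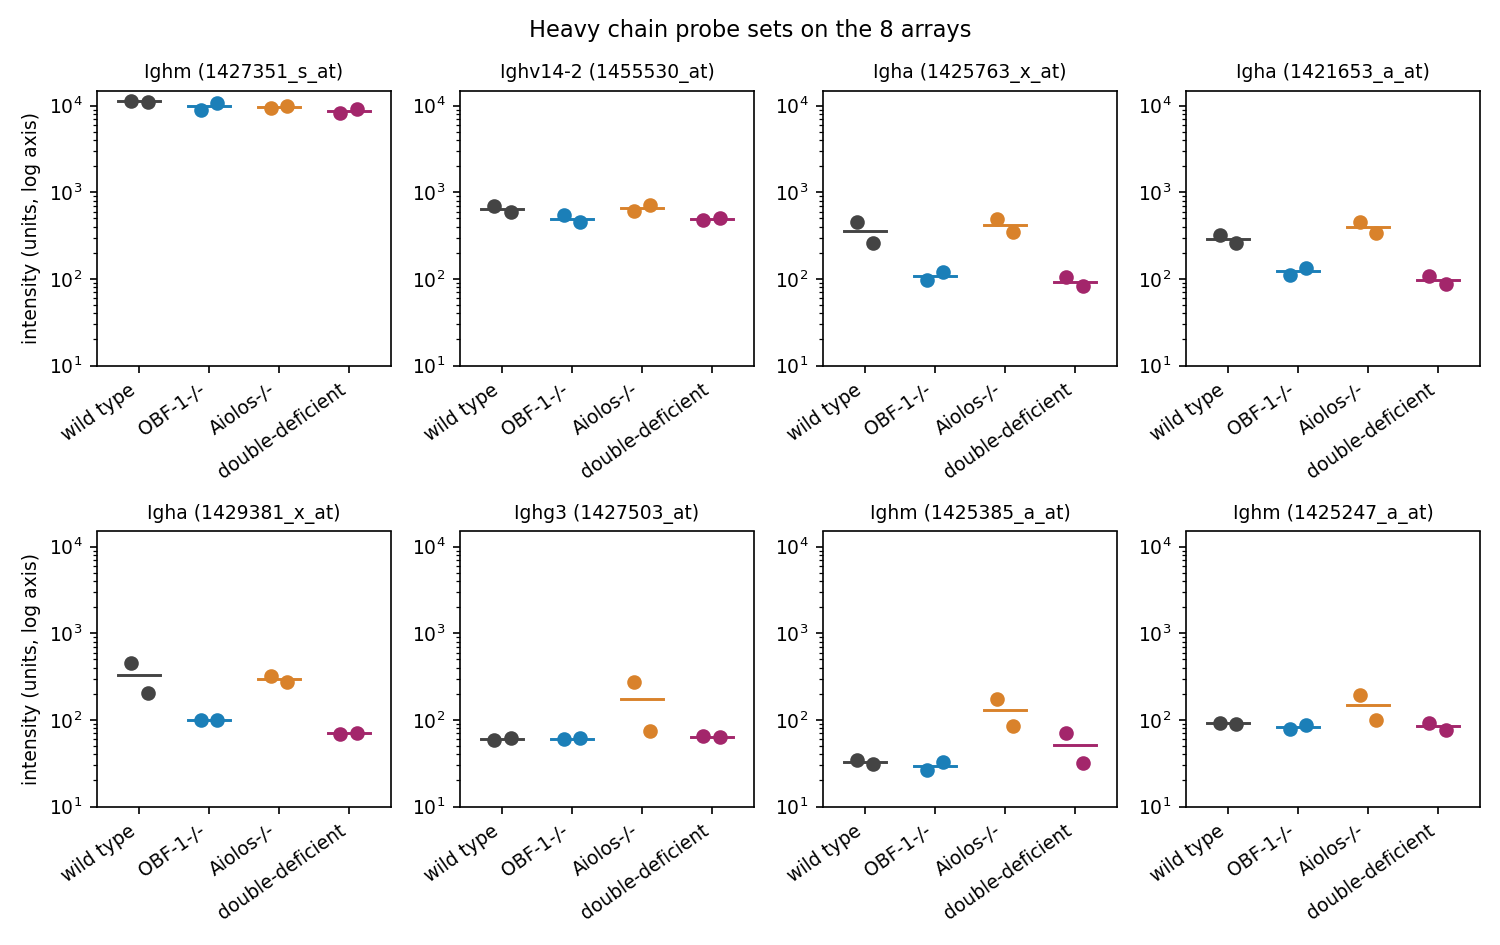
Intensity on a log axis, in array units, of 8 heavy chain probe sets on each of the 8 arrays, with 1 point per array and a bar at the mean of each genotype (n = 2). The 3 Igha probe sets are lower on all arrays without OBF-1, Ighm 1427351_s_at lies between 8265 and 11280 units throughout, and 1 of the Aiolos-/- arrays stands above the rest on Ighg3 1427503_at.

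A group of dimmer heavy chain probe sets was high on Aiolos replicate 1. Ighg3 (1427503_at), the constant gene of IgG3, had 275.0 units on that array, 74.61 on the other Aiolos-/- array and 59.11 to 64.8 on the remaining 6. The Ighm probe sets 1427870_x_at, 1425247_a_at, 1427756_x_at and 1425324_x_at had 281.3, 194.8, 59.56 and 53.38 units on Aiolos replicate 1 against 175.3, 99.41, 30.64 and 25.53 on Aiolos replicate 2. None of these 5 passed in Aiolos-/- cells. With Aiolos replicate 2 left out each passed, but that fit rests on the 1 array for which they are named here, and takes its spread from the other genotypes. The Ighm probe set 1425385_a_at did pass there, with 173.3 and 85.48 units in Aiolos-/- cells against 34.51 and 30.86 in wild type and 70.55 and 31.76 in double-deficient cells (log2 1.90, SE 0.34, adjusted p = 0.0191 from limma). That call was lost without Aiolos replicate 1 (adjusted p = 0.144) and without either wild type array (0.128 and 0.0868). On Aiolos replicate 1 Jchain, which joins IgM or IgA units in plasma cells, stood at 313 units, against 144 on the other Aiolos array and 100 to 200 on the remaining arrays, while the plasma cell receptor gene Tnfrsf17 was at 24.7 and 23.7 units on the Aiolos arrays and Prdm1, a plasma cell transcription factor, at 53.1 and 53.6. The part of plasma cells in these values was not tested.

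The remaining heavy chain members gave no calls. Ighv14-2 (1455530_at), a variable segment, had 687.4 and 598.3 units in wild type, 546.2 and 451.4 in OBF-1-/- cells, 616.9 and 718.3 in Aiolos-/- cells, and 479.8 and 501.8 in double-deficient cells. It was lower on all arrays without OBF-1, by 0.37 in OBF-1-/- cells and by 0.44 in double-deficient against Aiolos-/- cells (SE 0.12, adjusted p = 0.183 and 0.0822 from limma). The other 4 probe sets with a VH symbol lay under 40 units on every array, and the 3 Ighg3 probe sets besides 1427503_at lay under 15 units.

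The loss of OBF-1 was thus measured on separate sets of 4 arrays, with and without Aiolos. All 16 members that fell in OBF-1-/- cells also fell in double-deficient against Aiolos-/- cells, where they were 80% of the 20 that fell. Both comparisons took the spread of each probe set from the same fit to all 8 arrays. They also had the same layout of fluidics modules, so this overlap of calls is not that of independent tests. The 4 that fell in the second comparison alone were Iglv1 1430523_s_at, Igkc 1452417_x_at, Igkv5-39 and Igkv19-93 1427856_a_at, with -0.70, -0.17, -0.53 and -0.36 in the first. Of the 54 members 41 had a negative change in both. Pearson's r between both changes was 0.849 and Spearman's rho 0.734 over the 54 members, beside r = 0.447 over all 22626 probe sets, as a description of probe sets that partly share genes and transcripts. By type, 9 of 28 _at members, 1 of 6 _a_at, 1 of 4 _s_at and 5 of 16 _x_at members fell in OBF-1-/- cells, and 10, 2, 2 and 6 in double-deficient against Aiolos-/- cells. Probe sets ending in _s_at and _x_at can bind several transcripts, and among rearranged and closely related V segments this means that the segment measured is not certain.

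**Figure D4:**
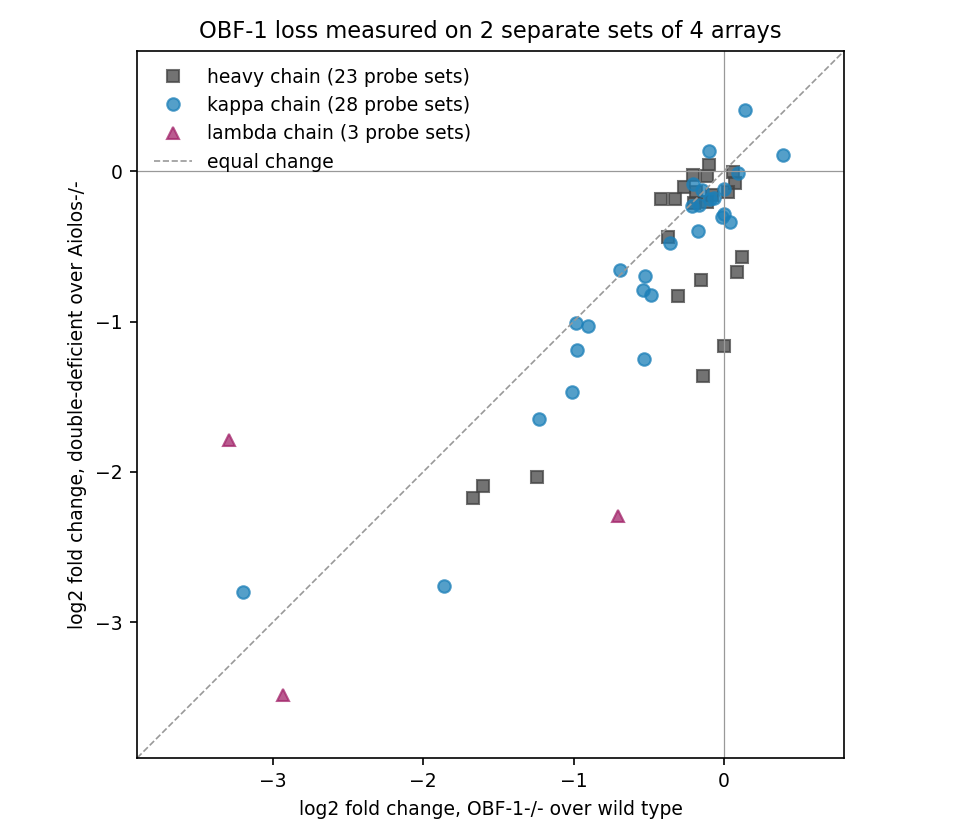
Log2 fold change of the 54 members in OBF-1-/- cells over wild type, against that in double-deficient over Aiolos-/- cells, with squares for heavy, circles for kappa and triangles for lambda probe sets and a dashed line of equal change. The 2 axes share no array, and 41 of the 54 members are negative on both.

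These are bulk samples, in which fewer cells of a type and less RNA per cell cannot be told apart. Markers of immature and mature B cells, which carry light chains at the surface, followed the light chain probe sets only in part. Their summed intensity over the 11 measured genes was 9510 to 9680 units in wild type, 6510 to 6730 in OBF-1-/- cells, 7940 to 8540 in Aiolos-/- cells and 5220 to 5820 in double-deficient cells. In OBF-1-/- cells 6 of the 11 fell, beside 1.14% lower over all probe sets, while none of the 3 Igkc probe sets passed. In Aiolos-/- cells none of the 11 passed, while all 3 lambda probe sets fell. In double-deficient cells against wild type 7 fell and 1 rose, beside 4.28% and 4.29% over all. The 1 that rose was Cd22, by 0.44 on the log2 scale (adjusted p = 0.0388 from limma). Ms4a1, which encodes CD20, had 2520 and 2380 units in wild type, 1490 and 1470 in OBF-1-/- cells, 1910 and 2020 in Aiolos-/- cells and 580 and 650 in double-deficient cells. The study lists Ms4a1 among genes reported earlier to depend on OBF-1. Cd40 passed in no comparison. Cr2 and Fcer2a, which mark mature B cells, were under 60 units on all arrays. The part of such cells in the light chain values was not tested.

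Other marker lists stood as follows. The 7 measured pre-B genes summed to 22800 to 25700 units on the 8 arrays, with Cd79a, Ptprc, Blnk and Rag1 among them. Of the 7, 1 rose and 1 fell in OBF-1-/- cells against wild type, beside 0.946% and 1.14% over all probe sets. In double-deficient cells against wild type 2 rose and 1 fell, beside 4.29% and 4.28% over all. The gene that fell was Cd79b in both. Il2ra, which encodes CD25 and was used in the sort, was at 445 and 396 units in wild type and at 676 and 598 in OBF-1-/- cells. The 7 pro-B and pre-BI genes summed to 2580 to 2600 units in wild type, 4010 to 4020 in OBF-1-/- cells, 6580 to 7240 in Aiolos-/- cells and 12600 to 12800 in double-deficient cells. This list holds the surrogate light chain genes Igll1 and Vpreb1, which the study found poorly silenced in double-deficient mice. Their means went from 304 and 193 units in wild type to 5660 and 3360 in double-deficient cells. Il7r, Dntt and Spn also passed as higher there, while Kit (39.6 to 43.6 units) and Flt3 (109 to 106 units) did not pass. The 9 granulocyte and monocyte genes summed to 22200 to 22300 units in wild type and 27200 to 30700 in OBF-1-/- cells. Against wild type 4 of them rose in OBF-1-/- cells and 7 in double-deficient cells, beside 0.946% and 4.29% over all probe sets. S100a8 of this list, a neutrophil gene, stood at 4570 to 6210 units on the 8 arrays. The 10 plasma cell genes summed to 3470 to 3650 units in wild type, 4500 to 4700 in OBF-1-/- cells, 3680 to 3960 in Aiolos-/- cells and 5030 to 5320 in double-deficient cells. This sum was higher on the arrays without OBF-1. The mean of Irf4 was 1590 units in wild type and 2260 in OBF-1-/- cells, and that of Sdc1 405 and 725. Prdm1, Xbp1 and Tnfrsf17 of this list passed in no comparison. Against wild type Sdc1 and Irf4 rose in OBF-1-/- cells, and Sdc1, Irf4 and Slamf7 in double-deficient cells, beside 0.946% and 4.29% over all probe sets. Irf4 is also in the list below of genes that act on the immunoglobulin loci. T cell sums were 290 to 361 units and erythroid sums 370 to 601 units on all arrays. The part of these other cells in the members' values was not tested.

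**Figure D5:**
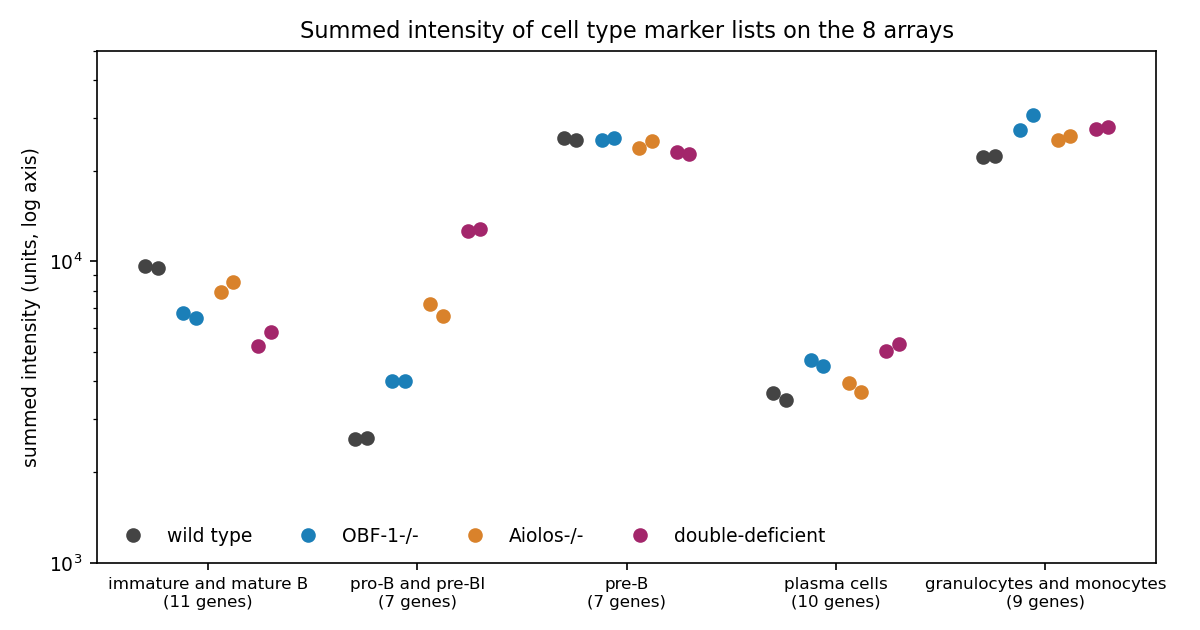
Summed intensity on a log axis, in array units, of 5 lists of cell type marker genes on each of the 8 arrays, with 1 point per array (n = 2 per genotype). The immature and mature B sum runs from 9510 to 9680 units in wild type to 5220 to 5820 in double-deficient cells. The pro-B and pre-BI sum, which includes Igll1 and Vpreb1, runs the other way.

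Of 18 listed genes that act on the immunoglobulin loci 16 were measured. In OBF-1-/- cells 1 of them rose and 1 fell (Pou2af1 itself), beside 0.946% higher and 1.14% lower over all probe sets. In double-deficient cells against wild type 1 rose and 4 fell, beside 4.29% and 4.28% over all. Oct-2 (Pou2f2), the octamer-binding partner of OBF-1, had 341 and 315 units in wild type and 361 and 426 in OBF-1-/- cells (adjusted p = 0.312 from limma). Irf4, which binds the kappa and lambda enhancers with PU.1, rose in OBF-1-/- cells by 0.51 and in double-deficient against Aiolos-/- cells by 0.59 on the log2 scale (adjusted p = 0.0232 and 0.00793 from limma). Ebf1 fell in Aiolos-/- cells by 0.58 (adjusted p = 0.0297 from limma), across fluidics stations, and Id3, an inhibitor of E proteins, fell by 0.98 in double-deficient cells (adjusted p = 0.000141 from limma).

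Of 9 measured recombination genes, Polm, a polymerase that fills ends in light chain joining, fell by 0.46 in OBF-1-/- cells (adjusted p = 0.048 from limma) and by 0.52 in double-deficient against Aiolos-/- cells (adjusted p = 0.021 from limma). Rag1 passed in none of the 5 comparisons between genotypes, with 3180 and 2900 units in wild type and 2570 and 2780 in double-deficient cells. Rag2 rose in double-deficient cells by 0.84 against Aiolos-/- cells (adjusted p = 0.01 from limma) and by 0.70 against wild type (adjusted p = 0.0139 from limma). Dntt, which adds untemplated bases at the joins, rose by 0.45 in Aiolos-/- cells (adjusted p = 0.0404 from limma) and by 0.59 in double-deficient cells against wild type (adjusted p = 0.00237 from limma), both across fluidics stations. Its wild type values, 68.7 and 72.5 units, were near the array medians. The study reported the mRNA of the main recombination genes, with Rag1, Rag2, Dntt and Polm among them, as unaltered in all mutants. It gave no threshold for that statement, and its list of changed genes used a fold cutoff above all of these changes. At the DNA level it found fewer lambda and V kappa to J kappa 5 joins in double-mutant than in wild type pre-BII cells. The joins to other J kappa segments that it tested did not differ. Of 5 measured partners of the immunoglobulin chains in the receptor, Cd79a passed in no comparison with wild type and Cd79b fell by 0.48 in OBF-1-/- cells and by 0.74 in double-deficient against Aiolos-/- cells (adjusted p = 0.0175 and 0.000595 from limma). The surrogate light chain gene Igll1, which takes the place of a light chain before one is made, went the other way from the lambda probe sets, with 327 and 281 units in wild type, 538 and 546 in OBF-1-/- cells, 3160 and 2820 in Aiolos-/- cells and 5900 and 5410 in double-deficient cells. Vpreb3 was also low on the arrays without OBF-1, with 6000 and 5820 units in wild type, 6040 and 5800 in Aiolos-/- cells, 1110 and 1200 in OBF-1-/- cells and 1760 and 1840 in double-deficient cells.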

How the data were processed

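Pre-BII cells of 4 genotypes were measured on 8 arrays. Per the labels the authors used RMA (no version given) to make the deposited intensity values, which are on a linear scale, while the study's methods name Affymetrix Microarray suite 5 and GeneSpring 5. RMA makes the arrays' distributions equal, so a change common to most genes is not seen. The log2 of the deposited intensities was taken, 64 control probe sets were left out, and 1 mean per genotype was fitted to 22626 probe sets in R 4.3.3 with limma 3.58.1, whose variances were moderated (degrees of freedom 7.69 prior, 4 residual). p-values were Benjamini-Hochberg adjusted over all of them. Intervals are unadjusted 95% intervals. Gene names come from the platform annotation, where 41 members had 1 symbol and 13 had several. Gene order comes from a RefSeq gene table used for names and order only.

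The members and lists were chosen with earlier results of these data known. The text names constant-region probe sets, members that passed (up to 12 per comparison), the 3 brightest per locus and the up to 4 largest changes per comparison among members of at least 100 units. Igkv9-120, Igkv14-111, Igkv6-15, Igkv5-39 and Igkv19-93 where it falls outside that rule, and the single values of marker genes, were named after their values were seen. For a context gene the probe set of the highest mean was used. Alternatives were another normalization or centring, an intensity minimum, other variance models, fewer arrays, a replicate block, a minimum fold and fewer probe set types. The replicate numbers do not pair the arrays, whose deviations correlated at -0.0875 to 0.103 between genotypes. The number of arrays limits the precision. Sequences of the members, and the planned search of their promoters for the octamer, were not analysed here.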

Additional observations from a re-analysis of the deposited data

Results flagged for a closer look

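The effect of losing OBF-1 differed between cells with and without Aiolos at 1 member, Iglv1 probe set 1427292_at, by the interaction term of limma. The interaction was 1.5 on the log2 scale (adjusted p = 0.00421), from a fall of 3.29 in OBF-1-/- cells to a fall of 1.79 in double-deficient against Aiolos-/- cells. Intensities of this probe set on arrays without OBF-1 lay near or under the array medians. The other 2 lambda probe sets had negative interactions, -0.55 and -1.59, that did not pass. With unmoderated variances the call of 1427292_at was lost (adjusted p = 0.298). Groups of 2 arrays were not searched for single outlying samples.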

How the results depend on the processing

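No call or gain of a call changed direction under any alternative, over 1466 values of single members. Unmoderated variances rest on 4 degrees of freedom. With them the members called dropped from 16 to 2 in OBF-1-/- cells and from 4 to 0 in Aiolos-/- cells. In double-deficient cells they dropped from 22 to 9 against wild type and from 20 to 1 against Aiolos-/- cells. Against OBF-1-/- cells they dropped from 7 to 0, and in the interaction from 1 to 0. Over all probe sets the share called in these tests was then 0.0398, 0.0265, 1.59, 0.0972, 0.115 and 0%. Without the _x_at and _s_at members, fewer by construction, the counts of members called were 10, 2, 13, 12, 3 and 1. A trend and robust fit left 2 in Aiolos-/- cells, a 1.5-fold minimum left 3 against OBF-1-/- cells, and renewed quantile normalization gave 2 in the interaction. Leaving out 1 array at a time, with the lone array assumed to vary like the other groups, gave 9 to 17, 1 to 8, 19 to 23, 18 to 23, 3 to 8 and 1 to 4, with 9 in OBF-1-/- cells without OBF-1 replicate 2, and 8 in Aiolos-/- cells, 6 of them higher, without Aiolos replicate 2. Against OBF-1-/- cells 3 were left without OBF-1 replicate 1 or double replicate 1. The replicate block gave 17, 4, 24, 22, 7 and 1, within 1.5 times each main count. Where no cause is given, it was not tested. Precision rests on 2 arrays per genotype, and the p-values cover the spread between pools.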
